A study of Rattus norvegicus with 35 samples.

Results

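The change examined here is what 12 h of mechanical stretch did beyond 4 h in cultured NRVMs (neonatal rat ventricular myocytes), the contracting muscle cells of the newborn heart ventricle kept in primary culture. It was read on 10 of the 35 arrays of the series, 5 from cells stretched for 12 h and 5 from cells stretched for 4 h, as the difference 12 h minus 4 h over 31042 probe sets, all those of an Affymetrix rat expression array without the AFFX control probe sets. No unstretched array enters the difference.

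Myocytes came from the ventricles of Sprague-Dawley pups 2 to 4 days old and were plated on flexible collagen I plates, kept overnight with serum and then without it, and stretched cyclically by vacuum. The other groups were unstretched cells and cells stretched for 1 h, which belong to the same set of 20 arrays as 4 h and 12 h, and a second set of 15 arrays with 24 h, 48 h and its own unstretched cells, each with 5 arrays. All cells of a culture were harvested at once, the longer stretch having been switched on earlier, so the 12 h and 4 h cells did not differ in age. The cells were a pre-plated, myocyte-enriched fraction and not a pure population and, as cells of newborn animals, they are not mature myocytes.

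Cardiac myocytes turn stretch into transcription in waves. Immediate early genes, whose promoters are read by factors already in the cell such as serum response factor (SRF), come first and decay, and secreted peptides, growth factors and structural genes of the hypertrophic programme follow. Stretch also raises reactive oxygen species, to which cells answer through Nrf2, a transcription factor that binds the antioxidant response element of genes for glutathione synthesis, thioredoxin reduction and detoxification, while load on the cytoskeleton drives YAP, which binds DNA through TEAD factors.

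Between 4 and 12 h, 24 of 28 measured Nrf2 target genes rose, among them those of glutathione synthesis and cystine uptake. Falls were called for 12 of 22 genes of TGF-beta and BMP signalling, 9 of 15 YAP targets, 10 of 21 genes of SRF and the actin cytoskeleton and 9 of 21 sarcomere genes, and for single genes such as Serpinb2, Tslp and Ccl20. Of the 31042 probe sets, 2913 (9.38%) differed at an adjusted p under 0.05 (limma, Benjamini-Hochberg), 1319 of them higher at 12 h (4.25%) and 1594 lower (5.13%). A change of at least 1.5-fold was reached by 187 probe sets (0.602%), of which 69 were higher at 12 h (0.222%) and 118 lower (0.38%). The limit of 2-fold was passed by 21 (0.0677%), of which 9 were higher (0.029%) and 12 lower (0.0387%). Most called differences were therefore under 1.5-fold, and the median difference over all probe sets was -0.00116 on the log2 scale.

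Of the 187 probe sets, 172 had all 5 arrays at 12 h on one side of all 5 arrays at 4 h, which held for 2330 of all 31042 (7.51%). The annotation gave 129 of the 187 to 1 gene, 4 to several genes and 54 to none. Probe sets of the last kinds are counted but not named, and the largest rise of all was read by one given to several genes, with a mean log2 intensity of 9.42 at 12 h and 7.77 at 4 h (a difference of 1.65 with a standard error of 0.107, adjusted p 2.8e-09). Read as 1 probe set per gene, 14217 genes were measured and 1717 called (12.1%), of which 832 rose (5.85%) and 885 fell (6.22%), with a median difference of 0.00344. Counts of list members called by limma at an adjusted p under 0.05, above and below, are to be read beside these shares. All values below are log2 of the deposited intensities, and a fold change is 12 h over 4 h.

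**Figure D1:**
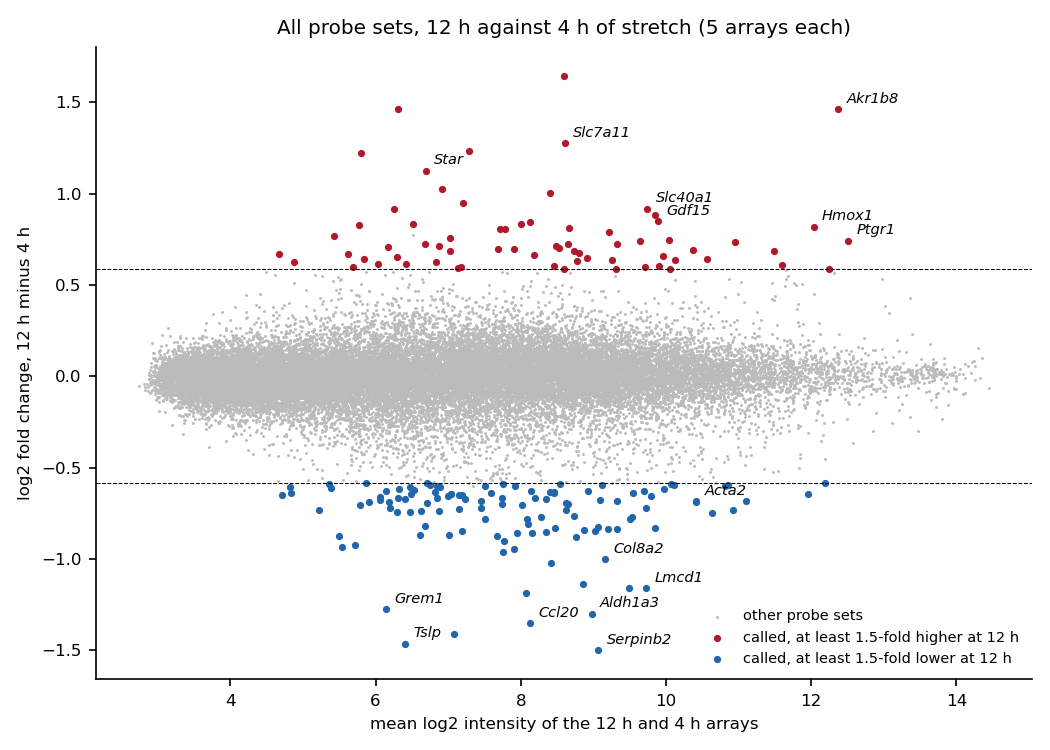
Log2 fold change (12 h minus 4 h of stretch) of each of the 31042 probe sets against its mean log2 intensity, with the probe sets at an adjusted p under 0.05 and at least 1.5-fold in colour. The 69 higher and 118 lower probe sets lie on both sides of a cloud centred near 0.

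Median intensities, which RMA evens out, were 88.7 to 91.15 at 12 h and 89.85 to 91.69 at 4 h. The replicates spread less at 12 h (median SD 0.0929 on the log2 scale) than at 4 h (0.127). Replicate 5 at 4 h stood apart, with an upper quartile of intensity of 341.3, against 359.4 to 372.0 on the other 4 h arrays, a lower quartile of 29.15, against 25.53 to 26.49, and a weight of 0.262, against 0.499 to 1.44, where arrays were weighted by their fit. Markers of cardiac myocytes were bright on all 10 arrays, with a summed level of 17.62 to 17.65 at 12 h and 17.67 to 17.73 at 4 h (log2 of the summed intensities of 19 markers). Markers of other cells were present too, the fibroblast sum being 16.05 to 16.13 at 12 h and 16.02 to 16.11 at 4 h, so the cultures hold the labelled cells together with others. In a culture of several cell types, fewer cells of a type and less RNA per cell cannot be told apart.

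The leading rise with a gene of its own was that of Akr1b8, an aldo-keto reductase that detoxifies lipid aldehydes. Its 5 arrays read 12.96, 13.19, 13.19, 13.24 and 12.94 at 12 h, against 11.78, 11.67, 11.58, 11.43 and 11.74 at 4 h. The groups lay more than a whole log2 unit apart at every array, and the gene had a log2 fold change of 1.46 or 2.76-fold (standard error 0.0815, adjusted p 3.98e-10). Slc7a11, the subunit of the cystine and glutamate exchanger that feeds glutathione synthesis with cystine, read 9.15, 9.52, 9.22, 9.56 and 8.76 at 12 h and 7.95, 8.10, 7.98, 7.81 and 7.99 at 4 h. The arrays did not overlap, and the difference was 2.42-fold (log2 1.27, standard error 0.114, adjusted p 2.11e-07).

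Genes that Nrf2 is known to control rose as a group. Of 28 measured genes on this list, 24 were higher at 12 h, 1 was lower and 3 were not called, against 5.85% higher and 6.22% lower over all genes, and the median difference was 0.50 against 0.00344 over all genes. The 2 subunits of glutamate-cysteine ligase, the enzyme that limits glutathione synthesis, both rose, Gclc by 0.69 and Gclm by 0.72 on the log2 scale. Gclm read 9.65, 9.80, 9.72, 9.72 and 9.57 at 12 h and 9.06, 9.12, 8.97, 8.95 and 8.75 at 4 h (standard error 0.0694, adjusted p 5.42e-07). Every 12 h array stood above every 4 h array.

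Hmox1, haem oxygenase 1, which splits haem into biliverdin, iron and carbon monoxide, read 12.44, 12.61, 12.50, 12.48 and 12.18 at 12 h and 11.68, 11.82, 11.56, 11.48 and 11.57 at 4 h. Again there was no overlap, and the level was 1.76-fold higher at 12 h (log2 0.82, standard error 0.0823, adjusted p 1e-06). The reductases of glutathione and thioredoxin, Gsr and Txnrd1, rose by 0.68 and 0.51 on the log2 scale. The NADPH-producing genes of the pentose phosphate pathway rose with them, Pgd by 0.58, and also its non-oxidative enzymes Tkt by 0.61 and Taldo1 by 0.44. Nqo1, which reduces quinones, rose by 0.53, and Cat, which breaks down hydrogen peroxide, by 0.50. Akr7a3, an aflatoxin aldehyde reductase, was 1.89-fold higher (log2 0.91, standard error 0.142, adjusted p 0.000196), and Ptgr1, which reduces oxidised lipid mediators, was not on the list and rose by 0.74. Aldo-keto reductases and glutathione transferases such as Gstm1 (0.69) are families of close copies, and a probe set may read more than its own member.

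The exception that fell was Ugdh, UDP-glucose dehydrogenase, which makes the UDP-glucuronic acid used in glucuronidation and hyaluronan synthesis. It read 11.42, 11.42, 11.44, 11.51 and 11.41 at 12 h and 11.63, 11.69, 11.74, 11.71 and 11.80 at 4 h. The arrays were separated in the direction opposite to that of the rest of the list (log2 -0.28, standard error 0.04, adjusted p 8.57e-05). Fmo1 (-0.04), Akr7a2 (0.07) and Gsta3 (0.16) were not called.

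The promoter windows of Gclm and Ugdh are shown because these list members moved in opposite directions and each holds a match to the antioxidant response element, TGACNNNGC, searched on both strands from 250 bases before to 50 bases after the start of transcription (RefSeq, GRCr8). Gclm lies at chr2:213031885-213032184 on the plus strand with its match on the reverse strand, 172 bases before the start, and Ugdh at chr14:43202268-43202567 on the plus strand with its match on the reverse strand, 207 bases before the start. Capitals mark the match, and in Ugdh a TEAD site, not marked, is also in the window.
Gclm: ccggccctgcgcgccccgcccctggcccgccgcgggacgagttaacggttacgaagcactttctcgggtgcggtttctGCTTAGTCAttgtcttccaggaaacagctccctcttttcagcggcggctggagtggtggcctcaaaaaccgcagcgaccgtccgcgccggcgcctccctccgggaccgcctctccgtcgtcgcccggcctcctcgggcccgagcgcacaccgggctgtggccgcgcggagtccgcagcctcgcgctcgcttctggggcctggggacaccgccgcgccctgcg
Ugdh: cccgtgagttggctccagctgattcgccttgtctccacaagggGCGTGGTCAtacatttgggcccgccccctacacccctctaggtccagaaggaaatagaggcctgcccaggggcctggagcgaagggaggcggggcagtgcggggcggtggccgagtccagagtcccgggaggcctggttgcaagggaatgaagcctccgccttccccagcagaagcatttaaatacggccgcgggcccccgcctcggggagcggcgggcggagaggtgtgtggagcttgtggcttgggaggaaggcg
The element was found in 12.1% of all 33469 windows. It was in those of 7 of the 26 list genes with a window (26.9%), namely Gclm, Txnrd1, Me1, Gsta3, Gstp1, Ephx1 and Ugdh. A gene with several starts has several windows and counted if any held the motif, so these 2 shares are unlike measures. The letters can also hold an AP-1 site (TGANTCA, in 7.33% of all windows). A match describes the letters of the window and no binding, and elements farther away were not searched.

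Several rises had no place on the Nrf2 list. Star, the protein that carries cholesterol into mitochondria for steroid synthesis, read 6.87, 7.39, 7.30, 7.73 and 6.95 at 12 h and 6.14, 6.05, 6.23, 6.13 and 6.07 at 4 h. No 12 h array came near the 4 h range (2.18-fold, log2 1.13, standard error 0.109, adjusted p 6.22e-07), and its second probe set gave a log2 fold change of 1.46. Ddit4l, an inhibitor of mTOR signalling related to Ddit4, read 8.91, 9.0, 8.83, 9.03 and 8.75 at 12 h and 8.15, 8.02, 7.71, 7.78 and 7.85 at 4 h. Its groups were separated as well (log2 1.0, standard error 0.0803, adjusted p 4.11e-08).

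Slc40a1, ferroportin, the iron exporter of cells, read 10.19, 10.30, 10.29, 10.16 and 10.05 at 12 h and 9.43, 9.33, 9.27, 9.20 and 9.16 at 4 h. The gap was wide relative to the spread within either group (1.89-fold, log2 0.92, standard error 0.0569, adjusted p 1.38e-09), and 2 further probe sets of Slc40a1 gave 0.95 and 0.89. Gdf15, a stress-induced member of the TGF-beta family, read 10.36, 10.31, 10.11, 10.73 and 10.08 at 12 h and 9.36, 9.57, 9.26, 9.61 and 9.55 at 4 h. Its lowest array at 12 h lay above its highest at 4 h (log2 0.85, standard error 0.112, adjusted p 3.43e-05). Arrdc3, an arrestin-related adaptor of receptor traffic, rose by 0.75, Entpd5, an endoplasmic reticulum nucleotidase, by 0.72, Nudt11, a diphosphoinositol polyphosphate phosphatase, by 0.75 and Mmp3, the matrix protease stromelysin 1, by 0.73 on the log2 scale.

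The rise of the histone gene H4f3 rested on uneven arrays, 6.24, 6.45, 5.50, 7.91 and 5.92 at 12 h, against 5.15, 5.21, 5.13, 5.22 and 5.21 at 4 h. Replicate 4 was far above the rest at 12 h, and histone H4 genes are near-identical copies. The log2 fold change was 1.22 (standard error 0.273, adjusted p 0.00586), and with only the 10 arrays of 4 h and 12 h in the fit the adjusted p was 0.0619.

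**Figure D2:**
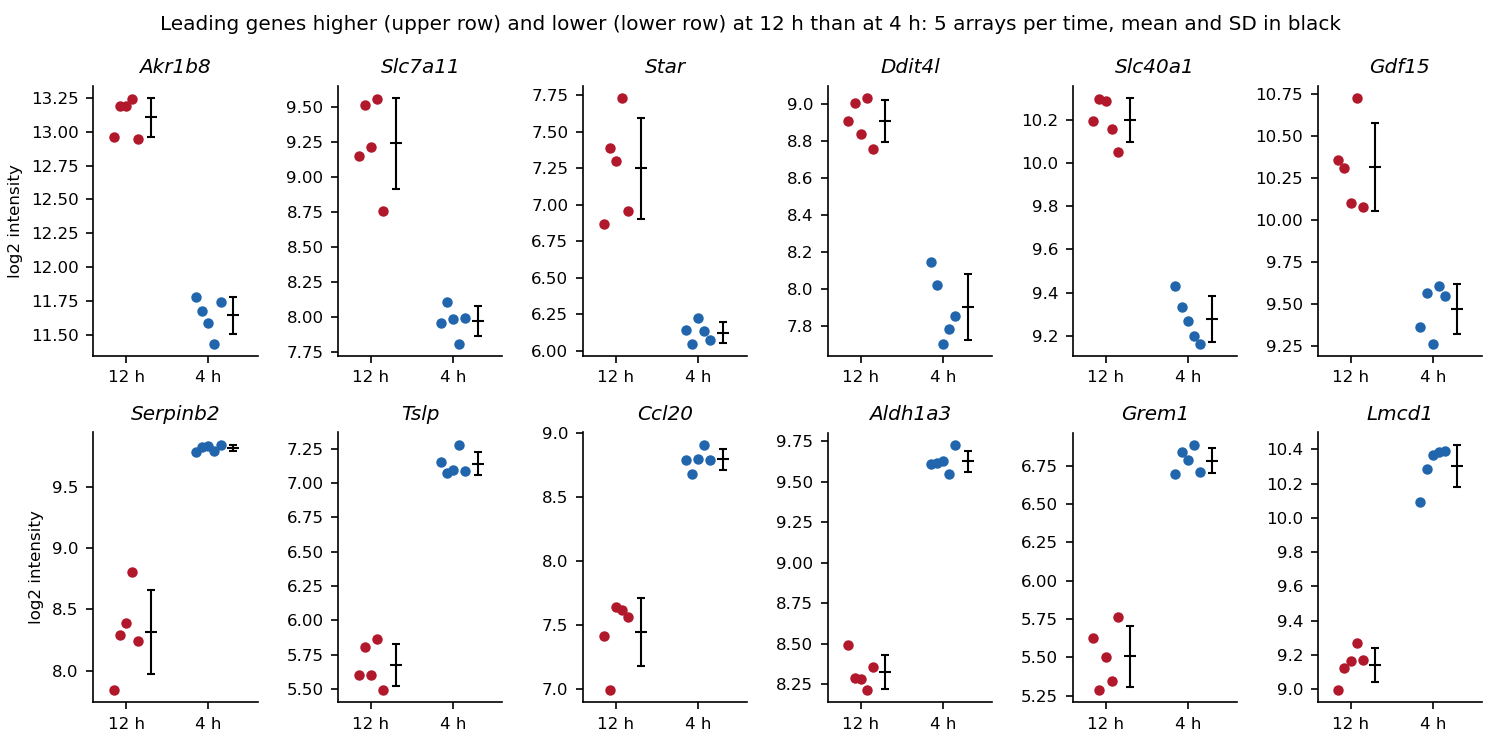
Log2 intensity on each array at 12 h (left) and 4 h (right) of 6 genes that rose (upper row) and 6 that fell (lower row), with mean and SD of 5 arrays. In all 12 genes the 2 groups of arrays do not overlap, Akr1b8 and Serpinb2 having the widest differences of those drawn (log2 1.46 and -1.5).

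The largest fall of a named gene was that of Serpinb2, plasminogen activator inhibitor 2. It read 7.84, 8.29, 8.39, 8.80 and 8.24 at 12 h and 9.78, 9.83, 9.84, 9.79 and 9.84 at 4 h. The 4 h arrays were nearly alike and the 12 h arrays all lay well below them (0.354 of the 4 h level, log2 fold change -1.5, standard error 0.126, adjusted p 8.47e-08). Tslp, a cytokine that epithelial and stromal cells release to dendritic cells, read 5.61, 5.81, 5.61, 5.87 and 5.49 at 12 h and 7.16, 7.08, 7.10, 7.28 and 7.09 at 4 h. The separation was complete (0.363 of the 4 h level, log2 -1.46, standard error 0.0783, adjusted p 3.12e-10).

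Ccl20, a chemokine for lymphocytes and dendritic cells, read 7.42, 6.99, 7.64, 7.62 and 7.56 at 12 h and 8.79, 8.68, 8.80, 8.91 and 8.80 at 4 h. Replicate 2 was the lowest at 12 h, and no array crossed between the groups (log2 -1.35, standard error 0.0914, adjusted p 4.63e-09). Aldh1a3, which makes retinoic acid from retinal, read 8.49, 8.29, 8.28, 8.21 and 8.36 at 12 h and 9.61, 9.62, 9.63, 9.55 and 9.73 at 4 h. All 12 h arrays were lower (log2 -1.30, standard error 0.0633, adjusted p 1.5e-10). Aldh1a2, another retinal dehydrogenase and a marker of mesothelium and epicardium, fell by 0.73 on the log2 scale (adjusted p 2.37e-09).

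Igfbp3, which binds insulin-like growth factors in plasma and tissue, had a log2 fold change of -1.16 (standard error 0.0918, adjusted p 3.69e-08). Olr1, the receptor of oxidised low density lipoprotein, had -1.13 (standard error 0.121, adjusted p 2.16e-06). These were followed by the short-chain collagen gene Col8a2 (-1.0), Fgl2, a fibrinogen-like protein (-0.90), the prostaglandin transporter Slco2a1 (-0.88), the calcium release channel Ryr3 (-0.87) and the transcription factor gene Creb5 (-0.86). Other probe sets of Fgl2 gave -0.28, -0.94 and -0.73 and those of Creb5 gave -0.87, -0.82, -0.40 and -0.61, all lower at 12 h but of unequal size.

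Among genes of TGF-beta and BMP signalling, antagonists and ligands led the falls. Of 22 measured genes on the list, 2 were higher, 12 lower and 8 not called, with a median difference of -0.24. Over all genes 5.85% were higher and 6.22% lower. Grem1, gremlin 1, a secreted antagonist of BMPs, read 5.63, 5.29, 5.51, 5.35 and 5.76 at 12 h and 6.70, 6.84, 6.78, 6.89 and 6.71 at 4 h. The highest 12 h array lay far below the lowest 4 h array (log2 -1.28, standard error 0.0887, adjusted p 6.47e-09). Fst, follistatin, which binds activins, had a log2 fold change of -0.85 (its second probe set -1.02), and Nog, noggin, which binds BMPs, had -0.41.

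Among the ligands, Tgfb3 had a log2 fold change of -0.70 (adjusted p 1.84e-08), Inhba, the activin A subunit, -0.59, Bmp4 -0.34 and Bmp2 -0.35, the second probe set of Bmp2 giving -0.15 without a call. Tgfb2 read 10.31, 10.27, 10.45, 10.41 and 10.29 at 12 h and 10.58, 10.97, 10.97, 10.97 and 10.85 at 4 h. Replicate 1 was the lowest at 4 h and still above all 12 h arrays (log2 -0.52, standard error 0.068, adjusted p 2.75e-05). Tgfb1 was not called (-0.06, adjusted p 0.727). The members that rose were Gdf15, given above, and Bambi, a decoy receptor, which was higher by 0.37.

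SRF and its actin cytoskeleton targets, YAP targets, sarcomere genes and hypertrophy markers had falls and no rise. On the SRF and actin list 10 of 21 measured genes were lower and 0 higher (median -0.18), on the YAP list 9 of 15 and 0 (-0.22), on the sarcomere and Z-disc list 9 of 21 and 0 (-0.12) and on the hypertrophy list 6 of 13 and 0 (-0.11). The shares over all genes were 6.22% lower and 5.85% higher. At an unadjusted p under 0.05 in limma 0 members of these 4 lists were higher. A one-way model that does not share the variance between genes, read at an adjusted p under 0.05, also called 0 higher. Shares over all genes under these other rules were not counted. Srf itself read 9.57, 9.38, 9.62, 9.59 and 9.37 at 12 h and 9.89, 9.98, 9.92, 9.92 and 9.84 at 4 h. The arrays of the brightest probe set did not overlap (log2 -0.41, standard error 0.05, adjusted p 1.45e-05), whereas 2 other probe sets of Srf gave -0.11 and -0.03 and were not called.

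Acta2, smooth muscle alpha-actin, which is also made in immature myocytes, read 10.05, 10.03, 9.88, 10.31 and 10.10 at 12 h and 10.41, 10.61, 10.97, 10.95 and 10.85 at 4 h. No 12 h array reached the lowest 4 h array (log2 -0.69, standard error 0.0915, adjusted p 3.56e-05). Tagln, an actin-binding protein, had -0.45, Vcl, vinculin, -0.38 and Actn1, alpha-actinin 1, -0.35. Acta2 and Tagln are also markers of smooth muscle cells and pericytes, for which 3 of 9 markers fell (Acta2, Tagln and Cspg4), the summed level being 12.54 to 12.74 at 12 h and 12.87 to 13.16 at 4 h. Myh11, a defining smooth muscle marker, was not called (0.09), and the part of such cells in the falls was not tested.

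Of the YAP targets, Ccn2, connective tissue growth factor, read 13.28, 13.32, 13.39, 13.33 and 13.29 at 12 h and 13.55, 13.58, 13.68, 13.71 and 13.58 at 4 h. The difference was small and without overlap (log2 -0.30, standard error 0.0449, adjusted p 0.000142). Ccn1, a matrix-bound integrin ligand of the same family, read 8.16, 8.14, 8.14, 8.31 and 8.14 at 12 h and 8.09, 8.73, 8.76, 8.66 and 8.48 at 4 h. Here replicate 1 at 4 h lay below every 12 h array (log2 -0.37, standard error 0.105, adjusted p 0.0301), and the call was lost without any 1 of replicates 1, 2, 3 and 5 at 12 h or 2, 3 and 4 at 4 h (adjusted p 0.0554 to 0.0854).

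The windows of Ccn1 and Ccn2 are shown for the TEAD site, CATTCC on either strand, and those of Srf and Egr2 for the CArG box, the site of SRF, since all 4 genes were lower at 12 h. Capitals mark the matches. Ccn1 lies at chr2:237225640-237225939 and Ccn2 at chr1:22624565-22624864, both on the minus strand. Ccn1 holds 1 match, 113 bases before the start, and Ccn2 holds 3, all on the reverse strand, 166, 101 and 92 bases before it. Srf lies at chr9:21923826-21924125 on the plus strand with 2 CArG boxes, 81 and 61 bases before the start, and Egr2 at chr20:21054392-21054691 on the minus strand with 1, 83 bases before the start. The Egr2 window also holds an antioxidant response element that is not marked.
Ccn1: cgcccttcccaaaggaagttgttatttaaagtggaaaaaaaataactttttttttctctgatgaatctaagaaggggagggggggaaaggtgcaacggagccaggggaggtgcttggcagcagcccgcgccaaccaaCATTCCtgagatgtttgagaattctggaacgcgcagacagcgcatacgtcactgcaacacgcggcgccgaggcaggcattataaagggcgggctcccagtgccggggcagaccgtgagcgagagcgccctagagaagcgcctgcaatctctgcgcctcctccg
Ccn2: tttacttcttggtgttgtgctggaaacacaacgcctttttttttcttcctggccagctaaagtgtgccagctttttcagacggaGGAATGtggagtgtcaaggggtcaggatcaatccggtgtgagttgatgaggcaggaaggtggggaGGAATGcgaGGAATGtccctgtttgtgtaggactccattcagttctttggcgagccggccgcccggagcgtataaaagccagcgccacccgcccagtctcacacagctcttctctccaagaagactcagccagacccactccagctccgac
Srf: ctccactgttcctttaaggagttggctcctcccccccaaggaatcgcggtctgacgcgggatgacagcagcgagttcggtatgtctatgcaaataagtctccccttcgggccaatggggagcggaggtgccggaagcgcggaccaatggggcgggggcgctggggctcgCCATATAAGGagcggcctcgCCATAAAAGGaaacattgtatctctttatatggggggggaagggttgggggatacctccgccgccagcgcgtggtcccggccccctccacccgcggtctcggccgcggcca
Egr2: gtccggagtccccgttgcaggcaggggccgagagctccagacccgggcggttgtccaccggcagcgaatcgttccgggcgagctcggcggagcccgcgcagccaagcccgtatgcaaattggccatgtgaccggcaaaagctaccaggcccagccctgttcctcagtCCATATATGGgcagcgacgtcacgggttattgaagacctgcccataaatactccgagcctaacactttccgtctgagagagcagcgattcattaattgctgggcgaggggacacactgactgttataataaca
The TEAD site was found in 14.2% of all windows and in those of 5 of the 11 YAP list genes with a window (45.5%). The CArG box was found in 1.64% of all windows. It was in those of 4 of the 16 SRF list genes with a window (25%) and of 4 of 17 immediate early genes (23.5%). A gene again counted if any of its windows held the motif, so shares of genes and of windows are unlike measures. The last letters of a TEAD site can be the first of a CArG box, and none of these 4 windows holds both motifs.

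Among sarcomere genes, Ttn, titin, the spring of the sarcomere, had a log2 fold change of -0.37, Myl7, the atrial regulatory light chain, -0.34, Tcap, telethonin, which caps titin at the Z-disc, -0.31, and Mybpc3, cardiac myosin-binding protein C, -0.21. The troponin genes Tnnt2 (-0.01), Tnnc1 (-0.04) and Tnni3 (-0.08) and the myosin heavy chain genes Myh6 (-0.06) and Myh7 (-0.07) were not called. The cardiac myocyte markers as a whole had 7 of 19 lower and 0 higher, and their summed level at 12 h lay just below that at 4 h, as given above. Ttn, Myl7, Mybpc3 and the troponin and myosin heavy chain genes named here are also on the marker list. This sum is therefore no separate reading of the sarcomere falls. A share of myocytes was not measured.

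Of the hypertrophy markers, Lmcd1, a LIM domain cofactor that promotes calcineurin signalling, fell most. It read 8.99, 9.12, 9.16, 9.27 and 9.17 at 12 h and 10.10, 10.28, 10.37, 10.38 and 10.39 at 4 h. Every 12 h array lay below every 4 h array (log2 -1.16, standard error 0.0636, adjusted p 3.75e-10). Nppb, B-type natriuretic peptide, read 13.61, 13.69, 13.69, 13.72 and 13.69 at 12 h and 13.79, 13.92, 13.96, 13.96 and 13.94 at 4 h. Its fall was slight but without overlap (log2 -0.23, standard error 0.0395, adjusted p 0.000478), and Nppa, atrial natriuretic peptide, was not called (-0.01, adjusted p 0.941). Xirp1, an actin-binding protein of intercalated discs, had -0.44.

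**Figure D3:**
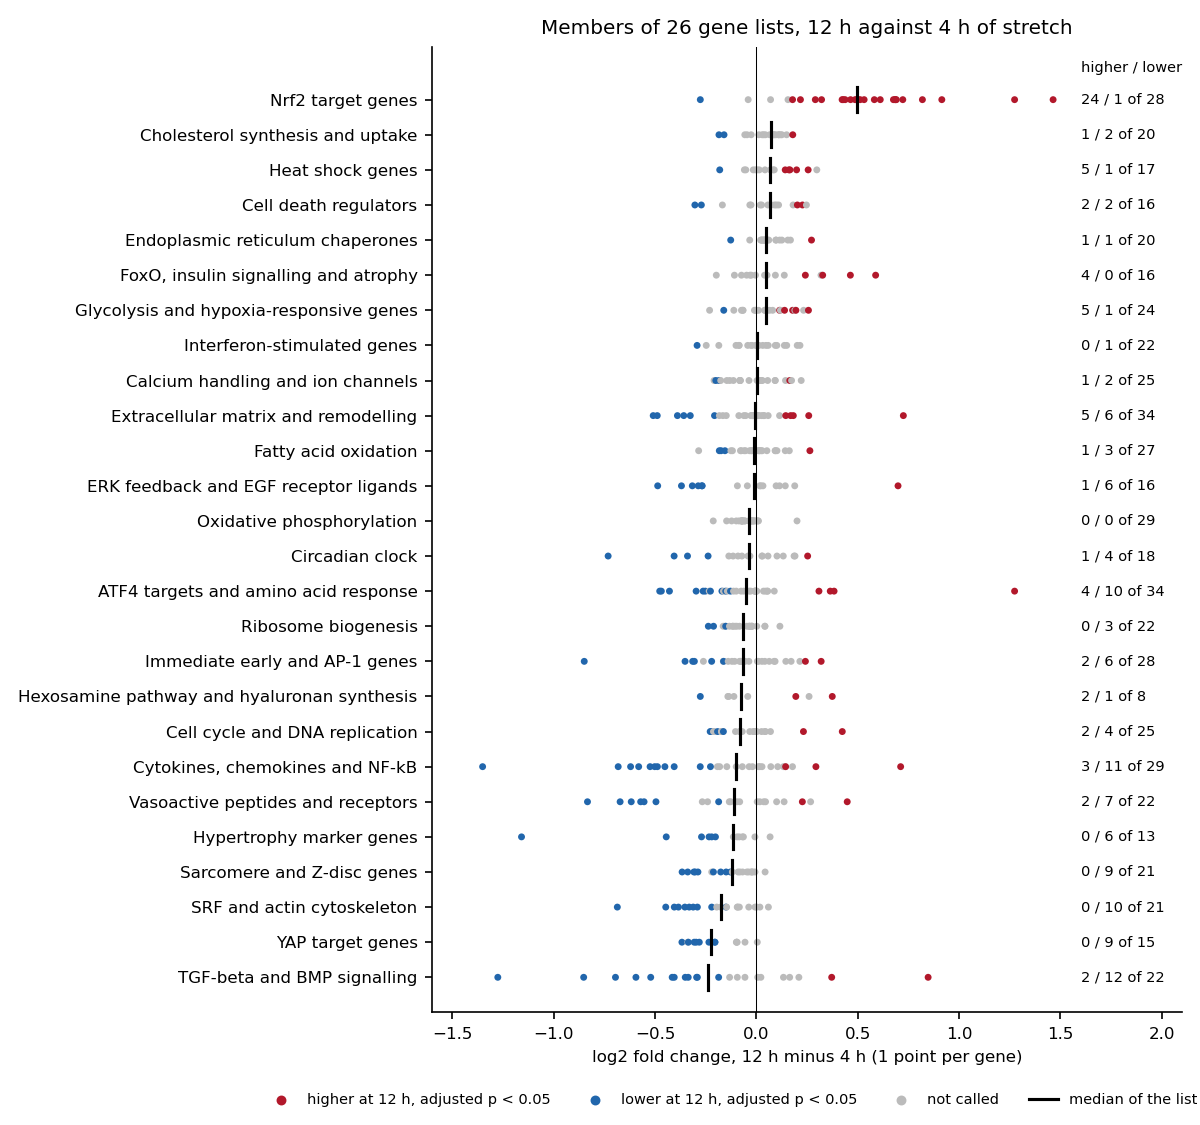
Log2 fold change (12 h minus 4 h) of each measured member of the 26 pathway lists, with list medians and, at the side, the number of members called higher and lower. The Nrf2 list lies to the right (24 higher, 1 lower, median 0.50), and the TGF-beta and BMP, YAP and SRF lists lie to the left of 0 (medians -0.24, -0.22 and -0.18).

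Of 28 measured immediate early genes, 2 were higher and 6 lower (median -0.07), against 5.85% higher and 6.22% lower over all genes. Egr2, a zinc finger transcription factor, read 8.63, 8.59, 8.56, 8.58 and 8.63 at 12 h and 9.39, 9.41, 9.59, 9.43 and 9.40 at 4 h. Both groups were tight and far apart (log2 -0.85, standard error 0.0446, adjusted p 3.12e-10), and a second probe set gave -0.33. Egr1 had -0.31, Atf3 -0.31 and Nr4a1 -0.22, whereas Fos (-0.16, adjusted p 0.155), Jun (-0.04) and Myc (0.06) were not called. Klf2, a flow-responsive zinc finger factor, rose by 0.24, with an adjusted p of 0.0104 in the fit of 20 arrays and 0.0744 with only the 10 arrays.

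Of 16 ligands of the EGF receptor and feedback inhibitors of the ERK pathway, 1 was higher and 6 lower (median -0.01). Over all genes 5.85% were higher and 6.22% lower. Tgfa, transforming growth factor alpha, rose on the log2 scale by 0.70 (standard error 0.0839, adjusted p 1.03e-05). Hbegf, a ligand of the same receptor, had a log2 fold change of -0.49 (standard error 0.0934, adjusted p 0.00162). The feedback genes Errfi1 (-0.37), Dusp6 (-0.32) and Spry1 (-0.29) fell, Dusp6 with an adjusted p of 0.0739 when only the 10 arrays were fitted, and the ligand gene Ereg (0.19) was not called.

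Cytokine, chemokine and NF-kB genes fell more often than they rose, 11 against 3 of 29 measured (median -0.10). The shares over all genes were 6.22% lower and 5.85% higher. Beside Ccl20, the falls held the chemokine gene Cxcl12 (-0.68), the adhesion molecule Vcam1 (-0.58), the inhibitor of NF-kB signalling Tnfaip3 (-0.50), Il1b (-0.49), Il1a (-0.45) and the cyclooxygenase gene Ptgs2 (-0.41). Il6, interleukin 6, rose, reading 6.96, 7.14, 7.28, 7.76 and 7.03 at 12 h and 6.42, 6.40, 6.53, 6.89 and 6.37 at 4 h. Replicate 4 was the highest in each group, and the groups did not overlap (log2 0.71, standard error 0.138, adjusted p 0.00173). Cxcl1, a neutrophil chemokine, rose by 0.29. Markers of macrophages had 1 of 15 lower, near the share over all genes, namely Cd74 (-0.39, adjusted p 0.0866 with only the 10 arrays). Their summed level was 10.62 to 10.8 at 12 h and 10.72 to 10.95 at 4 h. The part of such cells in the cytokine falls was not tested.

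Vasoactive peptides and their receptors had 2 members higher and 7 lower of 22 measured (median -0.11), against 5.85% higher and 6.22% lower over all genes. Agtr1a, the angiotensin II type 1a receptor, read 9.08, 8.50, 8.81, 8.66 and 8.90 at 12 h and 9.63, 9.59, 9.61, 9.66 and 9.62 at 4 h. The 4 h arrays were within a narrow band and the 12 h arrays all below it (log2 -0.83, standard error 0.0752, adjusted p 2.3e-07). Edn1, endothelin 1, a potent vasoconstrictor and growth factor of myocytes, read 6.17, 6.0, 6.02, 5.85 and 6.05 at 12 h and 6.53, 6.71, 6.79, 6.76 and 6.40 at 4 h. Again no array crossed (log2 -0.62, standard error 0.0713, adjusted p 6.3e-06). Rgs4, which ends signalling of G proteins, had -0.67, and the receptor partners Ramp1 and Ramp3 had -0.57 and -0.55. Adm, adrenomedullin, a vasodilator, rose by 0.45 (standard error 0.0656, adjusted p 9.8e-05).

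Some genes were also assayed by Northern blot or RT-PCR in these experiments, a choice that is no independent evidence of a direction. Of these, 14 had a probe set counted here, 3 of them higher (Il6, Adm and Spp1), 6 lower (Agtr1a, Edn1, Tgfb2, Bmp2, Xdh and Nppb) and 5 not called. In the study's RT-PCR, folds over control of Agtr1a, Edn1, Tgfb2, Bmp2 and Xdh were also lower at 12 h than at 4 h. Those of Adm and Spp1 were slightly lower at 12 h, so their rises on the arrays were not seen there. Fos, Atp2a2 and Tgfb1, not called here, were lower at 12 h in that assay. Spp1, osteopontin, rose by 0.26, a call lost without any 1 of replicates 1, 2 and 5 at 12 h or 1, 2 and 4 at 4 h (adjusted p 0.0735 to 0.0988). Xdh, xanthine dehydrogenase, had -0.28, a call lost without replicate 2 at 12 h or 4 at 4 h (adjusted p 0.0513 to 0.0549). The calcium pump gene Atp2a2 (-0.08) and the calcium channel gene Cacna1c (-0.04) were not called.

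Markers of other cells moved unevenly. Mesothelial and epicardial markers had 3 of 8 lower, against 6.22% of all genes, namely Aldh1a2 (-0.73), Krt18 (-0.37) and Wt1 (-0.36). Their summed level was 11.31 to 11.47 at 12 h and 11.84 to 11.94 at 4 h, without overlap. Aldh1a2, with a mean log2 intensity of 10.56 at 12 h and 11.29 at 4 h, makes up much of this sum. The second probe set of Wt1 gave 0.07, and with the mean over both the call of Wt1 was lost (-0.14, adjusted p 0.108) and the count was 2 of 8. Krt19 (0.02) and Msln (-0.11), which also mark these cells, were not called. Of 14 endothelial markers Tek was higher (0.27) and Sox17 (-0.74) and Flt1 (-0.38) lower, against 5.85% higher and 6.22% lower over all genes. The endothelial sums were 11.62 to 11.84 at 12 h and 11.63 to 11.86 at 4 h. The call of Flt1 was lost without replicate 5 at 12 h or replicate 1 at 4 h (adjusted p 0.0607 and 0.0506). The other probe sets gave 0.02 and -0.03 for Sox17 and -0.06 and -0.06 for Flt1, none of them called, and the means over the probe sets were -0.25 for Sox17 and -0.17 for Flt1. Fibroblast markers had 0 of 12 called by limma, with 0 higher and 2 lower at an unadjusted p under 0.05. The share over all genes at that unadjusted limit was not counted. The one-way model, at an adjusted p under 0.05, called 0, and its share over all genes was not counted either.

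Matrix genes, which fibroblasts make most of, had 5 of 34 higher and 6 lower (median -0.01), against 5.85% higher and 6.22% lower over all genes. Eln, elastin, had -0.51 (adjusted p 0.0501 with only the 10 arrays), Thbs2, thrombospondin 2, -0.49 and Tnc, tenascin C, -0.39. The fibrillar collagen genes Col1a1 (0.01) and Col3a1 (-0.03) were not called.

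Set against unstretched cells, the genes that changed between 4 and 12 h had unlike courses. The values of 4 h and of 12 h against control share the control arrays, and each shares its stretch arrays with the difference of 12 h and 4 h, so they are given side by side. Akr1b8 was above control by 0.70 at 1 h, 1.32 at 4 h and 2.78 at 12 h on the log2 scale, and Hmox1 by 0.47, 1.68 and 2.50 in the same order of times. Gclm differed from control by 0.11 at 1 h (not called), 0.46 at 4 h and 1.19 at 12 h. These genes had their highest mean at 12 h.

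Other risen genes were below control at 4 h and above it at 12 h. Ddit4l differed from control by -0.33 at 1 h, -0.24 at 4 h and 0.76 at 12 h. Slc40a1 differed by -0.39, -0.40 and 0.52 at those times. Il6 was above control throughout and had its highest mean at 1 h, where it was above control by 2.04, with 0.90 at 4 h and 1.61 at 12 h.

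Among the falls, Serpinb2 was above control by 2.72 at 1 h, 3.13 at 4 h and 1.63 at 12 h, and Aldh1a3 by 0.48, 1.76 and 0.46. Lmcd1 was above control by 1.0 at 1 h, 1.39 at 4 h and 0.23 at 12 h. Egr2 had its highest mean at 1 h (2.31), with 0.76 at 4 h and -0.09 at 12 h, the last not called. In these genes a level raised early stood closer to control at 12 h.

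A further group was below control at 12 h. Ccl20 differed from control by -0.09 at 1 h and 0.04 at 4 h, neither called, and by -1.31 at 12 h. Grem1 differed by 0.21 at 1 h (not called), -0.47 at 4 h and -1.75 at 12 h. Edn1 had -0.17 at 1 h and -0.07 at 4 h, not called, and -0.69 at 12 h. Agtr1a was already low, with -0.52 at 1 h, -1.5 at 4 h and -2.33 at 12 h, and Tslp had 0.46, 0.57 and -0.90.

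**Figure D4:**
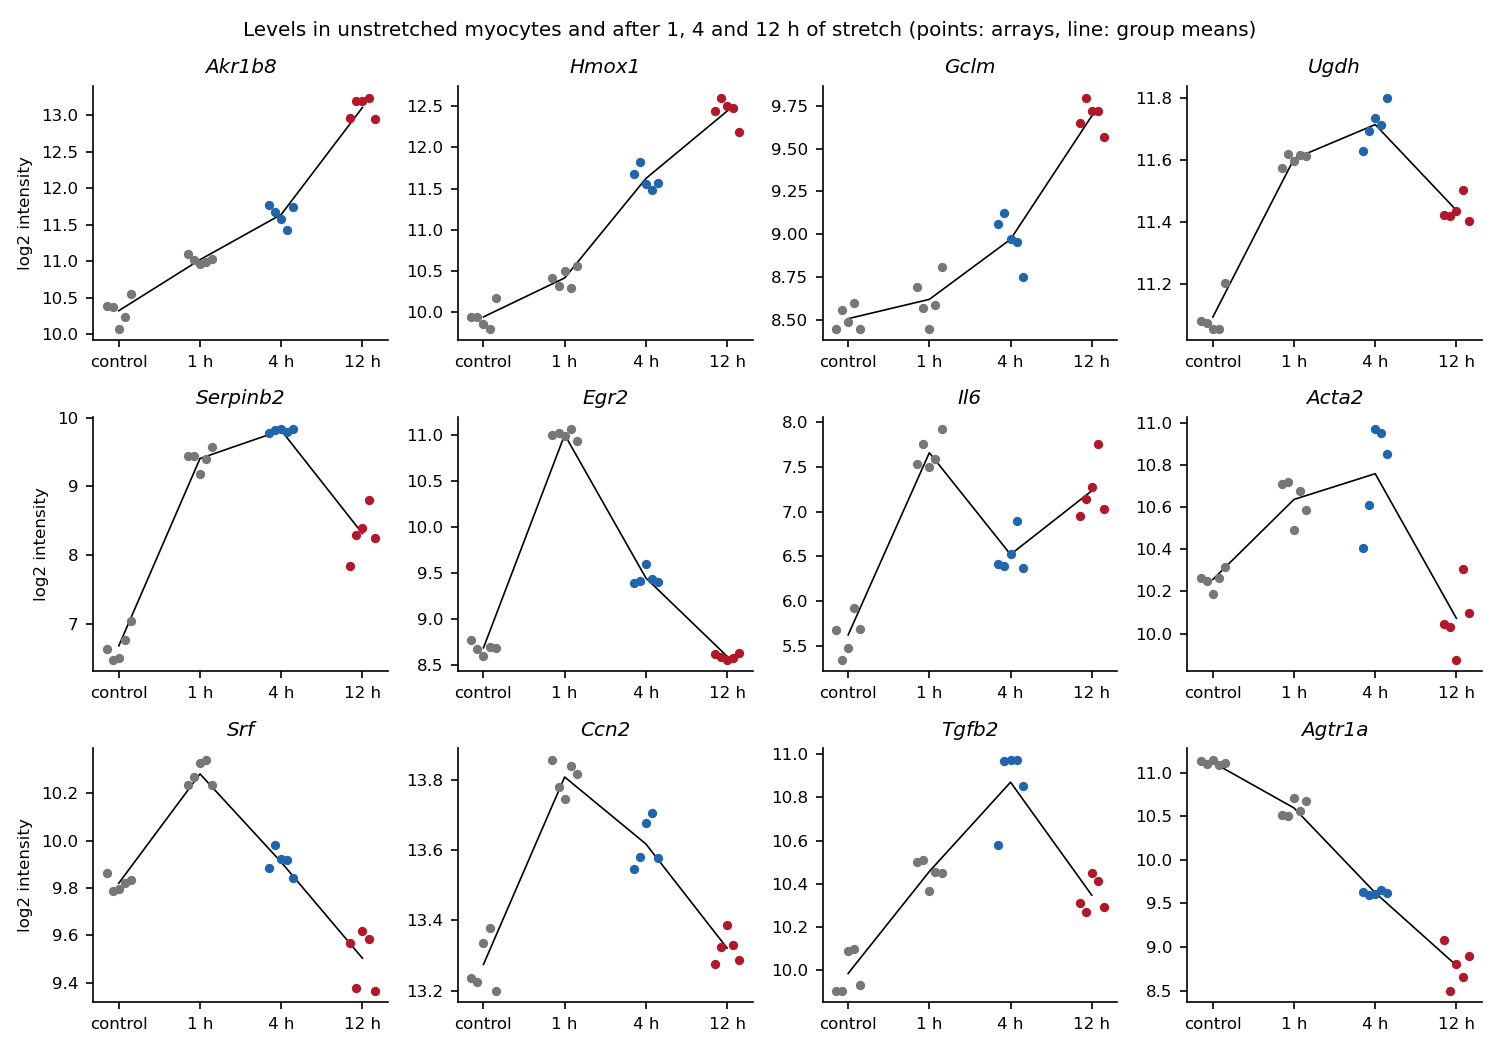
Log2 intensity on each of 5 arrays per group, with a line through the group means, in unstretched cells and after 1, 4 and 12 h of stretch for 12 genes named in the text. Akr1b8 and Hmox1 have their highest mean at 12 h, Egr2 and Il6 at 1 h, and Agtr1a its lowest at 12 h.

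The same probe sets were also read on arrays outside the difference. Those of 1 h and its control were in the same fit as the calls and shared its estimate of spread. At 1 h, 26 of the 118 probe sets that were lower at 12 h than at 4 h were at least 1.5-fold above control (22.0%, against 0.751% of all 31042 probe sets) and 5 were below it (4.24%, against 0.561%), with a median of 0.21 against -0.000285 over all. Of the 69 that were higher at 12 h, 8 were above control at 1 h (11.6%) and 2 below (2.9%), with a median of 0.05. Egr2, Serpinb2 and Olr1 (2.25 at 1 h) were among the genes raised at 1 h that fell later.

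In the second set of arrays, 19 of the 69 risen probe sets were at least 1.5-fold above their own control at 24 h (27.5%, against 1.25% of all) and 1 was below (1.45%, against 1.66%), and the median was 0.38 against 0.0162 over all. Akr1b8 was above that control by 1.11, Slc7a11 by 1.32 and Hmox1 by 0.84, while Ddit4l (0.04) and Slc40a1 (-0.00301) were not called. The 118 fallen probe sets were divided at 24 h, 25 above control (21.2%) and 27 below (22.9%, against 1.66% of all), with a median of -0.00488. Serpinb2 stood 2.77 above its control at 24 h and Lmcd1 1.5, while Agtr1a had -1.24 and Igfbp3 -1.05.

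Between 48 and 24 h, 1 of the 69 was at least 1.5-fold higher at 48 h (1.45%, against 0.177% of all) and 3 were lower (4.35%, against 0.805% of all). Of the 118, 4 were higher at 48 h (3.39%) and 7 lower (5.93%). The experiments were done in separate sets with a control each, so levels were compared only within a set.

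**Figure D5:**
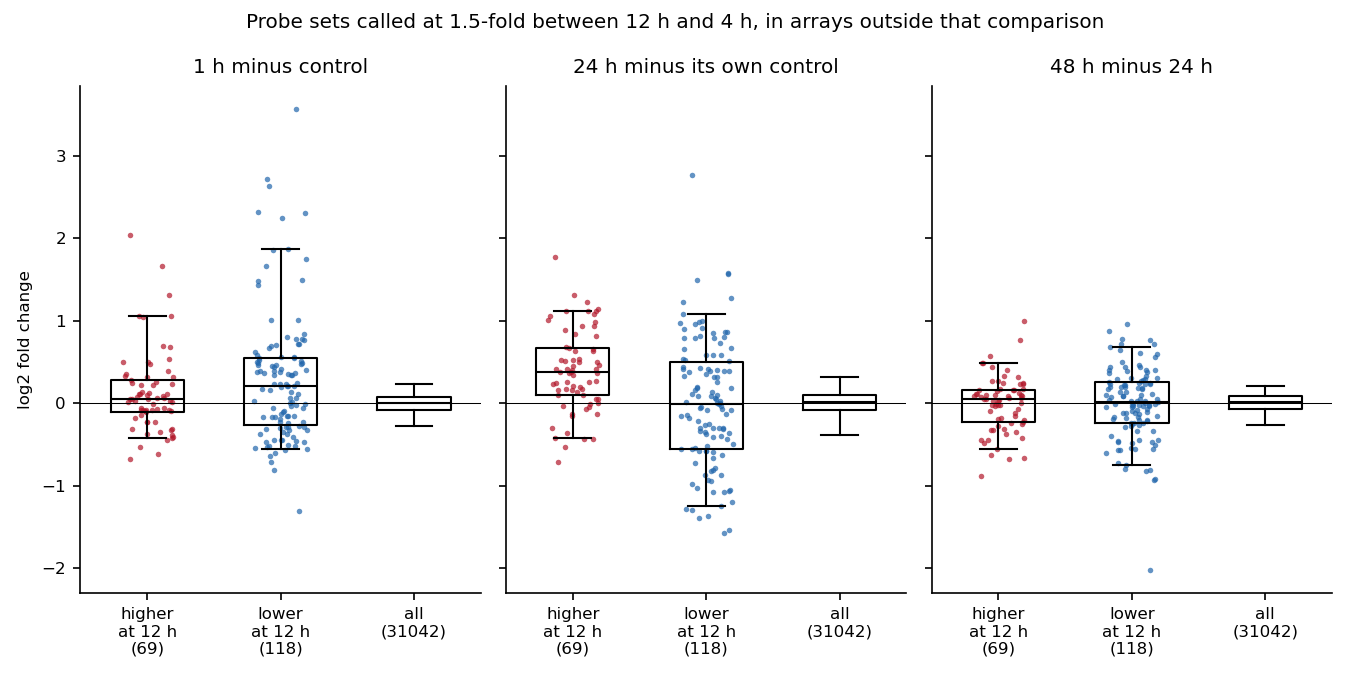
Log2 fold change on arrays outside the 12 h minus 4 h difference (1 h minus control, 24 h minus its own control, 48 h minus 24 h) of the 69 higher, the 118 lower and all 31042 probe sets, as boxes of the quartiles with whiskers at 5 and 95%. The median of the lower probe sets lies above that of all probe sets at 1 h (0.21), and that of the higher ones at 24 h (0.38).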

How the data were processed

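Total RNA of stretched and unstretched NRVMs was hybridised to Affymetrix rat expression arrays, 5 biological replicates for each of 7 groups according to the methods. The authors deposited RMA-normalised intensity values on a linear scale, 1 column per array, and the submitters' processing notes name RMA, run in GeneSpring GX according to the methods. The deposited intensity values were turned into log2 values here with no offset, and nothing was renormalised. Of 1088465 values, 471 had been turned into dates by a spreadsheet (173 on the 12 h and 4 h arrays) and were restored from month and year or day and month. RMA draws arrays toward a common distribution, so shifts of all genes together cannot be seen.

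The control labels carry only a letter, which was read as the first (1, 4 and 12 h) or second (24 and 48 h) set of experiments. The 20 arrays of the first set were fitted with limma 3.58.1 in R 4.3.3 (lmFit, eBayes), with 16 residual degrees of freedom and a median residual SD of 0.114, and the contrast 12 h minus 4 h was adjusted by Benjamini-Hochberg over 31042 probe sets. The second set had a fit of its own. The 57 AFFX controls were left out. The platform annotation gave 20826 probe sets 1 gene, 436 several and 9780 none, and a gene was read by its brightest probe set over all 35 arrays. Probe sets of different genes were not compared in level. Precision is limited by there being 5 arrays per group.

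The genes named were the 15 largest rises and 15 largest falls with separated arrays, up to 4 called members of each list with the largest change and those against its majority, and genes the study measured otherwise. Other list members are given as examples chosen after their values were seen. The members and lists were chosen with earlier results of these data known. 1 gene is not reported here. Replicate numbers were not used to pair the arrays, and the labels do not say whether a number marks a culture. Alternatives left out each array, other groups or dim probe sets, and changed the normalisation, the variance model, the test, the date values and the gene summary. On simulated data of the 12 h and 4 h comparison over 31042 probe sets, 98% of changes of 1.5-fold and 100% of 2-fold were recovered, with 11 false calls. Recovery was counted at an adjusted p under 0.05 in limma with no fold limit, so it does not describe the counts at 1.5-fold. The simulated noise was normal and had the same spread in every group, whereas the real arrays spread more at 4 h than at 12 h. Promoter windows are from RefSeq (GRCr8). Columns of other series numbered 0.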

Additional observations from a re-analysis of the deposited data

Results flagged for a closer look

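Of 60 groups of 5 arrays of the named rises and falls that were examined, 3 had an array whose gap to the others was larger than Dixon's limit of 0.71 of the group's range, a limit that chance passes in about 1 of 20 groups. Col8a2 was flagged in both groups, at 12 h with replicate 1 the highest (8.87, against a group median of 8.60, ratio 0.748) and at 4 h with replicate 2 the highest (9.97, against a median of 9.62, ratio 0.766). Creb5 had replicate 5 the lowest at 4 h (7.91, against a median of 8.49, ratio 0.961), the array with the lowest weight at 4 h (0.262). Both genes were lower at 12 h on every array despite these values.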

How the results depend on the processing

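The count of 187 probe sets at 1.5-fold held within 1.5 times under 19 of 21 alternatives, with 168 to 203 when any 1 array was left out (59 to 79 higher and 104 to 136 lower) and 184 with the replicate block, all among the 187. The replicate numbers correlated by only -0.3 to 0.16 in pairs of the same number, over 0.1 in 1 of 5, and no 12 h array correlated best with its own number at 4 h, so the block, with 2743 calls at any fold against 2913, was not used. Such correlations of whole arrays cannot exclude that arrays of the same number shared a culture. Reading each gene by 1 probe set gave 86 in all, 36 higher and 50 lower, and the mean over all probe sets of a gene gave 78, 32 higher and 46 lower, both by construction fewer. With only the 10 arrays of 12 h and 4 h in the fit, 1539 probe sets were called at any fold, with fewer arrays to estimate the spread, and 176 at 1.5-fold, all among the 187. Centring each array on its median shifted the difference by 0.00959 and the higher calls to 50.1% of all calls, against 45.3%. Leaving out 1 array gave 2090 to 3103 calls at any fold. Array weights gave 204 calls at 1.5-fold, 69 higher and 135 lower. Without the fold limit on the arrays outside the difference, 18 of the 69 were above control at 1 h (26.1%, against 6.32% of all probe sets). Below control at 1 h were 10 of the 69 (14.5%, against 7.52%). At 24 h 34 of the 69 were above their control (49.3%, against 9.14%) and 4 below (5.8%, against 9.13%). Of the 118, 54 were above control at 1 h (45.8%) and 26 below (22.0%). At 24 h 31 of the 118 were above (26.3%) and 40 below (33.9%).

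Of 3015 results of 144 named genes under alternatives, 2845 kept direction and side of the threshold, 166 lost the call, 1 gained it and 3 changed sign, and 97 of 137 called genes kept the call throughout. The sign changes were in uncalled genes, Cacna1c (-0.0765 to 0.028 when 1 array was left out, above 0 without replicate 2 at 4 h, and 0.0169 as the mean over its probe sets) and Nppa (0.00232 with each array centred), and the cause was not tested. Without replicate 5 at 4 h, an alternative chosen after seeing the data, the Nrf2 list had 24 higher and 1 lower, the TGF-beta and BMP list 3 and 12, the YAP list 0 and 9 and the SRF list 0 and 11. Intensities near background and probe sets with several or no genes limit what single genes can show.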

Other observations

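Genes of the amino acid response that ATF4 controls were divided, with 4 of 34 measured higher at 12 h and 10 lower (median -0.05). The shares over all genes were 5.85% and 6.22%. Slc7a11, given above as an Nrf2 target, stood apart at the top, and Ddit3, the stress transcription factor CHOP, rose by 0.38. The cationic amino acid transporter Slc7a1 (-0.48), Chac1, which degrades glutathione (-0.47), the aminoacyl-tRNA synthetase genes Cars1 (-0.43) and Yars1 (-0.30) and Atf4 itself (-0.25) fell. Chaperones of the endoplasmic reticulum had 1 of 20 higher and 1 lower, near the shares over all genes (5.85% higher and 6.22% lower). Of the clock genes, 1 of 18 rose, near the share over all genes, and 4 fell. The falls were led by Noct, nocturnin, a rhythmically expressed gene (-0.73, adjusted p 3.07e-08). It was above control by 2.64 at 1 h, 1.15 at 4 h and 0.42 at 12 h. Per2 (-0.41), Cry1 (-0.34) and Bmal1 (-0.24) fell with it.

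On the list of FoxO, insulin signalling and atrophy genes 4 of 16 were higher and 0 lower. At an unadjusted p under 0.05 in limma 1 was lower, and the one-way model called 0 lower at an adjusted p under 0.05. Sqstm1, the autophagy receptor p62 and also known as an Nrf2 target, rose by 0.59 (adjusted p 9.38e-07) and Ccng2, a cyclin that restrains division, by 0.46. Glycolytic genes had 5 of 24 higher, such as Slc2a1 (0.20) and Pfkl (0.26, adjusted p 0.0516 with only the 10 arrays), and 1 lower, and heat shock genes had 5 of 17 higher, such as Fkbp4 (0.26) and Hsp90ab1 (0.20), and 1 lower, against 5.85% higher and 6.22% lower over all genes. The lower members were the glucose transporter Slc2a4 (-0.16) and Hspa1a (-0.18). The call of Slc2a4 was lost without any 1 of replicates 2, 3 and 5 at 12 h or 1 and 2 at 4 h (adjusted p 0.054 to 0.104). It was also lost with the mean over its 2 probe sets, and over all alternatives its adjusted p reached 0.381. The call of Hspa1a was lost without any 1 of replicates 1, 2, 3 and 5 at 12 h or 2 and 5 at 4 h (adjusted p 0.0536 to 0.0834). Both calls were also lost with each array centred, with array weights or with only the 10 arrays. Of 29 oxidative phosphorylation genes limma called 0 (median -0.04), with 8 lower and 0 higher at an unadjusted p under 0.05. The one-way model called 6 lower at an adjusted p under 0.05. Shares over all genes at that unadjusted limit and in the one-way model were not counted, so these counts have no background here. Over all probe sets the one-way model called 1628 lower, against 1594 by limma. Of the cell cycle list, 2 of 25 rose and 4 fell, against 5.85% higher and 6.22% lower over all genes. The risen genes were Tyms, thymidylate synthase (0.42), and Ccnd1 (0.23). Among the fallen was Ccnb1 (-0.22), whose second probe set gave 0.00417 and whose call was lost with the mean over both (-0.11, adjusted p 0.123). Gfpt2, which starts the hexosamine pathway, rose by 0.37, on a list where Ugdh fell.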
